A study of Mus musculus with 5 samples.

Results

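The interleukin-1 family genes described here are 4 ligands (Il1a, Il1b, Il18 and Il33), 1 secreted antagonist (Il1rn) and 4 receptor genes (Il1r1, Il1r2, Il1rap and Il1rl1), followed in single-cell RNA sequencing of fetal mouse lung. The members were chosen by gene symbol, 9 of the 32285 genes counted, and all 9 had UMIs in every library. They were put forward with results of these libraries known, so their levels per cell class are a description without a test, and the number of members past a threshold says nothing about the family as a whole. Lungs of 2 Zswim8+/- embryos (Het1 and Het2) and 3 Zswim8-/- embryos (KO1, KO2 and KO3) were collected at E18.5, shortly before birth, and each embryo's whole lungs were dissociated with collagenase and DNase and made into 1 10x 3′ library. Both groups carry a mutant Zswim8 allele, and no Zswim8+/+ embryo is among the samples. Zswim8 is a substrate receptor of a ubiquitin ligase that triggers the decay of microRNAs. By Y-linked and Xist counts, Het1, Het2 and KO3 were male and KO1 and KO2 female, so sex is partly aligned with genotype.

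Interleukin-1 alpha and beta bind the receptor encoded by Il1r1, which then recruits the shared accessory protein encoded by Il1rap and signals through MyD88 and NF-kB. The antagonist encoded by Il1rn occupies the same receptor without signalling, and the decoy receptor encoded by Il1r2 binds ligand but lacks a signalling domain. Interleukin-33 signals through the receptor ST2, encoded by Il1rl1, with the same accessory protein, and is known in lung as an epithelial and stromal alarmin to which mast cells and innate lymphoid cells respond. Interleukin-18, like interleukin-1 beta, is made as a precursor that caspase-1 cleaves in the inflammasome.

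The libraries held 56608582 to 93708304 UMIs (unique molecular identifiers, 1 per captured transcript), and 3051 to 4634 cells per library were kept, 18869 in all. At most 7 kept barcodes were shared by any 2 libraries. Zswim8 was counted at 36.4 and 38.6 CPM (UMIs scaled so that every library has the same sum) in the Het libraries and at 38.3, 39.3 and 41.2 CPM in the KO libraries, a log2 difference of 0.05 (adjusted p = 0.657, edgeR). The deleted part of the gene is not given in the sources used here, so these 3′ counts do not check the genotype labels. Red-cell barcodes had more than 50% haemoglobin UMIs and fewer than 500 detected genes. They made up 21.4 to 48.7% of each library's barcodes and served as a measure of free RNA. Cells were clustered and the clusters named "-like" from marker genes, which gave 30 classes, of which 17 had at least 20 cells in every library and were tested. Clusters led by Plet1 and Ear2, by Spp1 and Wfdc17, and by Ager and Sftpc are called by those genes, since more than 1 marker list shared their leading genes. The best-matching list was monocyte for the Plet1/Ear2 clusters, alveolar macrophage for Spp1/Wfdc17 and AT1 for Ager/Sftpc. With doublets kept, a cluster led by Spp1 and Wfdc17 was named alveolar macrophage.

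In the GRCm38 assembly with GENCODE M21 genes, several members lie beside each other. On chromosome 2, Il1a (chr2:129299610-129309972) and Il1b (chr2:129364570-129371139) are both on the minus strand, 54.6 kb apart, and Il1rn (chr2:24336853-24351494) lies far from them on the plus strand. On chromosome 1, the receptor genes Il1r2 (chr1:40074079-40125231), Il1r1 (chr1:40225080-40317257) and Il1rl1 (chr1:40429570-40465415) follow each other on the plus strand with gaps of 99.8 and 112.3 kb. Il18 is at chr9:50554827-50581840, Il33 at chr19:29925114-29960718 and Il1rap at chr16:26581704-26730117, all on the plus strand. Antisense or overlapping genes are annotated at Il1a (Gm14023), Il1b (Il1bos), Il18 (Bco2 and Tex12), Il1r2 (Gm16894 and Gm37347), Il1r1 (Gm38070) and Il1rap (Gm20319), and whether the counting used strand is not given in the sources used here.

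The promoters of 3 members are shown because the results turn on them: Il1a and Il1b are neighbours whose transcripts were spread differently over the myeloid classes, and Il33 fell in alveolar epithelial cells. Each runs from 250 bases before to 50 bases after a RefSeq start on GRCm38.p6, and RefSeq promoters were found for all 9 members. Both strands were searched for NF-kB (by name), C/EBP (TTNNGNAA), PU.1 (GAGGAA) and AP-1 (TGANTCA) motifs, and capitals mark the matches. The Il1a promoter is chr2:129309923-129310222, the Il1b promoter chr2:129371090-129371389, both on the minus strand, and the Il33 promoters are chr19:29924863-29925162 and chr19:29945540-29945839 on the plus strand.
Il1a: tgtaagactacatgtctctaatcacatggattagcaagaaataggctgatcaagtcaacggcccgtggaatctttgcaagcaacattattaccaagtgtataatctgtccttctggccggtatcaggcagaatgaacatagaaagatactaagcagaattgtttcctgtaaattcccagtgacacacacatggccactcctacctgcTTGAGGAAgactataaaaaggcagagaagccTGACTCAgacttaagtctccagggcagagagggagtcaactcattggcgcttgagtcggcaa
Il1b: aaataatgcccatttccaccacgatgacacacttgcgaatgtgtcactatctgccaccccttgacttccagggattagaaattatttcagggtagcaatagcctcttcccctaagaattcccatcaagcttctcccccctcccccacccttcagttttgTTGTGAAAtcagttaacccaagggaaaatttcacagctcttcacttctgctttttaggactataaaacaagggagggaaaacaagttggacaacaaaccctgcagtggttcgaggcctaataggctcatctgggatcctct
Il33 start 1: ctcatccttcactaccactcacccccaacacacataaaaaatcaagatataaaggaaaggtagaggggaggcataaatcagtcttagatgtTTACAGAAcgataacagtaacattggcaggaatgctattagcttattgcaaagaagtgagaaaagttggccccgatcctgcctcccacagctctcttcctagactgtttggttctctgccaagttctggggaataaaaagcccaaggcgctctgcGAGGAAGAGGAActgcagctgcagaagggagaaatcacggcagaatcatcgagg
Il33 start 2: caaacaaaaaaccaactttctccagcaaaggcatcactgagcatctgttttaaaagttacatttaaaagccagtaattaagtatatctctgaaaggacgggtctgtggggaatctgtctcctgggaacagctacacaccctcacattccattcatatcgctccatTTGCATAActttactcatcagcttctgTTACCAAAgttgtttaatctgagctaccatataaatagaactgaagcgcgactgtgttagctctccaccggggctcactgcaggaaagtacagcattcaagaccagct
Upstream of Il1a a C/EBP and a PU.1 match overlapped, beginning 43 and 41 bases before the start, and an AP-1 match began 12 bases before it. Il1b had 1 C/EBP match, 91 bases before the start. The upstream Il33 start had 1 C/EBP and 2 PU.1 matches, and the downstream start had 2 C/EBP matches. No NF-kB match lay in these 4 windows. Of 32851 promoters of the same length, 4.51% held the NF-kB motif, 40.7% the C/EBP motif, 28.3% the PU.1 motif and 7.81% the AP-1 motif. A match describes letters only, and 3′ counts do not tell which Il33 start was used.

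Levels are CPM over all UMIs of a class in a library. The ligands Il1a and Il1b and the antagonist Il1rn were counted mainly in myeloid classes, and Il18 in myeloid and mesothelial-like cells. Il33 was counted mainly in mesothelial-like cells, AT2-like cells and adventitial fibroblast-like cells. Il1r1 had its highest means in mesenchymal classes. Il1r2 was counted mainly in neutrophil-like cells and Il1rl1 in basophil and mast-like cells. Il1b passed a mean of 20 CPM in 10 of 30 classes, Il1a, Il18, Il1rn and Il1r1 in 7 each, Il33 and Il1rap in 5 each, Il1r2 in 4 and Il1rl1 in 3.

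**Figure D1:**
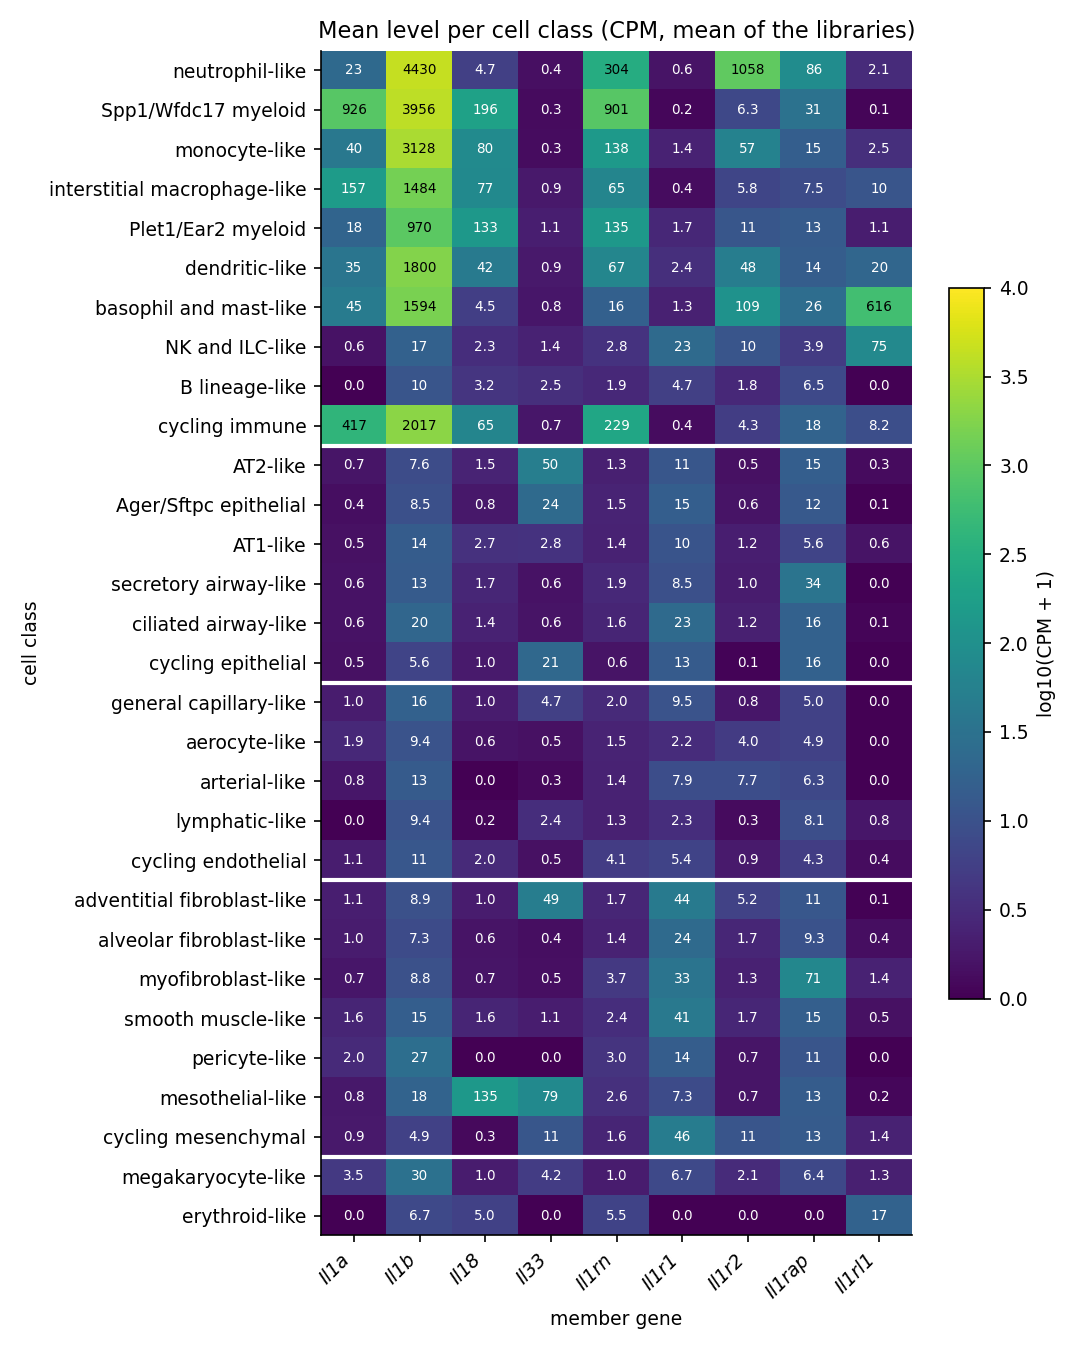
Mean CPM over the 5 libraries of each member (columns) in each of the 30 classes (rows), with colour on a log scale. Il1b is spread over the immune classes, at 4429.6 CPM in neutrophil-like cells, whereas Il1r2 and Il1rl1 are each high mainly in 1 class.

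Il1b, the secreted fever-inducing ligand, stood at 4518 and 4743 CPM in Het and 4466, 4494 and 3926 CPM in KO neutrophil-like cells (4429.6 ± 302, SD, n = 5 libraries). The Spp1/Wfdc17 myeloid cells were next at 4465 and 4361 CPM in Het and 2010.1, 4172 and 4771 CPM in KO, of which the lowest value comes from 3 cells of KO1. Monocyte-like cells followed at 3087 and 3023 CPM in Het and 3119.6, 3292 and 3121 CPM in KO, and Plet1/Ear2 myeloid cells, a class of 4 clusters with 3517 cells, lay lower at 970.1 ± 187 CPM (SD, n = 5). The ranges of the leading Il1b classes overlapped, so no order among them is given beyond their means.

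Il1b was also counted at 7.25 to 26.8 CPM in all 12 non-immune classes examined. Among the non-haemoglobin UMIs of red-cell barcodes it reached 170.8 and 190.3 CPM in the Het libraries and 58.0, 111.3 and 141.8 CPM in those of KO embryos. The red-cell level was above the mean of every one of these classes on this scale, and it was higher in both Het libraries than in any KO library. Red-cell barcodes held 0.0311 to 0.0851 Il1b UMIs each, whereas the 12 classes held 0.0767 to 1.22 UMIs per cell. These counts are not adjusted for depth. Median depth ran from 1877 UMIs in secretory airway-like cells to 44673 in ciliated airway-like cells, of which 41.9% held markers of another lineage. The part of free RNA in the low Il1b counts outside the immune lineage was not tested. The other members reached at most 25.3 CPM in red-cell barcodes.

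Il1a, whose product acts from the cell surface or after release by dying cells, was at 1033 and 966 CPM in Het and 891, 905 and 836 CPM in KO Spp1/Wfdc17 myeloid cells (926 ± 75.5, SD, n = 5). All 5 values lay above those of every other class, although the KO values come from 3, 14 and 23 cells. Cycling immune cells held 571 and 754 CPM in Het against 261, 206 and 295 CPM in KO, and interstitial macrophage-like cells 164 and 117 CPM in Het and 217, 146 and 141 CPM in KO. The cycling immune class joins a cluster led by interstitial macrophage genes and one led by Spp1 and Wfdc17, and the latter held 24 and 31 Het cells but 0, 4 and 6 KO cells. Plet1/Ear2 myeloid cells had 22.4 and 17.8 CPM of Il1a in Het and 21.3, 15.6 and 15.3 CPM in KO.

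Il18, the inflammasome-processed ligand that stimulates interferon production by lymphocytes, was highest on average in Spp1/Wfdc17 myeloid cells (196 ± 70.9 CPM, SD, n = 5). Mesothelial-like cells, the outer covering of the lung, were at 109 and 83.7 CPM in Het and 114, 189 and 181 CPM in KO. Plet1/Ear2 myeloid cells stood at 160.2 and 163 CPM in Het and 147, 93.7 and 99.2 CPM in KO, monocyte-like cells at a mean of 79.8 CPM and interstitial macrophage-like cells at 77.2 ± 8.91 CPM. Neighbours in this order overlapped in range.

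Il33, the nuclear alarmin, was at 102 and 107 CPM in Het and 49.99, 55.3 and 79.1 CPM in KO mesothelial-like cells. AT2-like cells, the surfactant-making alveolar cells, held 88.7 and 79.6 CPM in Het and 26.2, 27.4 and 30.5 CPM in KO. Adventitial fibroblast-like cells were at 42.8 and 77.1 CPM in Het and 46.6, 29.0 and 49.99 CPM in KO. Epithelial and stromal classes thus carried Il33, and the immune lineage as a whole stood at only 0.598 to 1.145 CPM. The 3 leading classes overlapped in range.

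The antagonist Il1rn followed the myeloid ligands. It was at 782 and 808 CPM in Het and 702, 867 and 1347 CPM in KO Spp1/Wfdc17 myeloid cells, above neutrophil-like cells (304 ± 39.8 CPM, SD, n = 5) in every library. Plet1/Ear2 myeloid cells had 161 and 154 CPM in Het and 138, 102 and 118 CPM in KO.

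Among the receptors, the signalling receptor Il1r1 was low, with its highest means in mesenchymal classes. Adventitial fibroblast-like cells had 43.8 ± 6.63 CPM and smooth muscle-like cells 40.9 ± 9.21 CPM (SD, n = 5), beside 46.3 ± 20.4 CPM in cycling mesenchymal cells. These ranges overlapped. It was not confined to them: NK and innate lymphoid-like cells (22.9 CPM) and ciliated airway-like cells (22.8 CPM) lay beside alveolar fibroblast-like cells (23.5 CPM), with overlapping ranges. The decoy Il1r2 was at 1138 and 1116 CPM in Het and 914, 1088 and 1034 CPM in KO neutrophil-like cells, above the basophil and mast-like cells (109 ± 49.9 CPM) that came next. The accessory protein gene Il1rap was at 86.3 ± 9.07 CPM in neutrophil-like cells and 70.6 ± 20.6 CPM in myofibroblast-like cells, with overlapping ranges. Il1rl1 was at 488 and 608 CPM in Het and 654, 631 and 698 CPM in KO basophil and mast-like cells, and the NK and innate lymphoid-like cells that came next held 75.3 ± 37.5 CPM. For Il1r2 and Il1rl1 the leading class lay above the next in all 5 libraries.

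The genes whose class means were most alike were named by Pearson's r of log2(CPM + 1) over the 30 classes, among 11783 genes, as a description. These points share libraries and free RNA. Il1a was closest to Tnf (r = 0.97), Cxcl2 (0.95) and Gpr84 (0.92), and Il1b to Lilrb4a (0.98), Nlrp3 (0.97) and Ccr1 (0.97). Il1rn was closest to Tlr2 (0.97), Ccr1 (0.96) and Clec5a (0.95). For Il18 these were Guca1a (0.87), Clec4a3 (0.86) and Trem2 (0.86), and for Il33 Fgf9 (0.88), Akr1c19 (0.81) and Cybrd1 (0.80). Il1r1 was closest to Setbp1 (0.91), Casc4 (0.86) and Rasl11a (0.86), Il1r2 to Gm19951 (0.91), Slc2a6 (0.88) and Trim30b (0.88), Il1rap to Trib1 (0.84), Homer1 (0.79) and Mboat7 (0.76), and Il1rl1 to Cst7 (0.84), Mpo (0.82) and Tph1 (0.81).

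Het and KO lungs were then compared on UMIs summed per library, with the embryo as the replicate and edgeR's quasi-likelihood test with Benjamini-Hochberg adjustment over all genes of each fit. Over all kept cells, Il1a, Il1rn, Il18 and Il1r2 fell in KO and no member rose. That is 4 of 9 members, beside 4.05% of the 17735 genes tested. Sums over all cells do not separate fewer cells of a type from less RNA per cell.

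Il1a stood at 69.2 and 76.4 CPM in Het and 28.6, 24.4 and 26.0 CPM in KO. Both Het libraries lay above every KO library, with a log2 fold change (KO against Het throughout) of -1.50 (SE 0.09, adjusted p = 0.00905). Il1rn stood at 102 and 108 CPM in Het and 50.7, 49.7 and 56.9 CPM in KO, again without overlap (-1.04, SE 0.07, adjusted p = 0.0104). Il18 stood at 60.4 and 63.4 CPM in Het and 47.4, 38.4 and 40.1 CPM in KO, also without overlap (-0.59, SE 0.11, adjusted p = 0.0418). Il1r2 stood at 33.3 and 36.4 CPM in Het and 24.8, 28.7 and 25.5 CPM in KO, the smallest of the 4 changes (-0.44, SE 0.08, adjusted p = 0.0443).

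Il1b missed the threshold at 880.0 and 916 CPM in Het and 636, 780.5 and 721 CPM in KO, although the groups did not overlap (-0.37, adjusted p = 0.0773). Il33 was at 13.1 and 18.1 CPM in Het and 10.8, 6.94 and 11.02 CPM in KO (-0.73, adjusted p = 0.128). Il1rap (-0.22, adjusted p = 0.131), Il1r1 (0.29, adjusted p = 0.310) and Il1rl1 (0.54, adjusted p = 0.279) did not pass either. In all, 7 of 9 members had groups that did not overlap, as did 46.1% of all genes tested, and the median log2 fold change was -0.44 over the members and 0.01 over all genes.

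**Figure D2:**
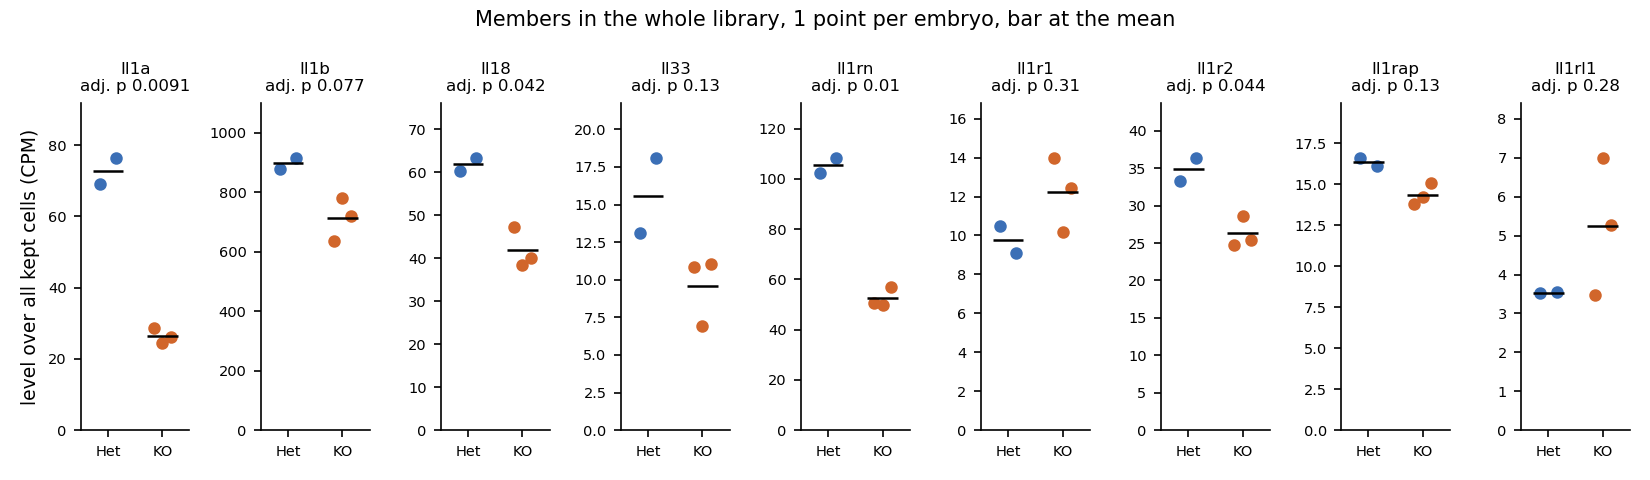
CPM of each member over all kept cells in the 2 Het and 3 KO libraries (points) with group means (lines) and the adjusted p of the edgeR test. Het and KO points are apart for Il1a, Il1rn, Il18 and Il1r2, which passed the threshold, and for Il1b, Il33 and Il1rap, which did not.

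With only 2 Het libraries these calls rest on each of them. Without Het1, the adjusted p was 0.0960 for Il1a, 0.111 for Il1rn, 0.245 for Il18 and 0.232 for Il1r2, and without Het2 it was 0.0875, 0.0879, 0.233 and 0.257, with the same signs. Il18 also missed the threshold without KO2 (0.0708) or KO3 (0.111), and Il1r2 without KO1 (0.0572) or KO3 (0.110). With sex as a covariate none of the 4 passed. Over all alternatives the adjusted p ran from 1.5e-37 to 0.247 for Il1a, from 2.0e-26 to 0.111 for Il1rn, from 7.8e-05 to 0.245 for Il18 and from 0.00108 to 0.257 for Il1r2.

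Where these transcripts sat in the lung differed between the libraries. The Spp1/Wfdc17 and cycling immune clusters together held 79.2 and 85.7% of all Il1a UMIs in Het but 9.81, 28.9 and 40.2% in KO, and 38.5 and 46.8% of Il1rn UMIs in Het against 2.76, 12.5 and 22.3% in KO. Spp1/Wfdc17 myeloid cells themselves made up 3.26 and 3.96% of kept cells in Het and 0.0983, 0.433 and 0.592% in KO. Within these cells Il1a was at 966 to 1033 CPM in Het and 836 to 905 CPM in KO, without overlap, and the KO cells were too few for a test within the class. The part of cell numbers and of the level per cell in the Il1a totals was not tested separately. Interstitial macrophage-like cells made up 4.45 and 4.53% of kept cells in Het and 10.4, 11.4 and 10.8% in KO, and added 4.26 and 2.66 CPM of Il1a to the whole library in Het and 16.0, 9.79 and 8.82 CPM in KO.

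**Figure D3:**
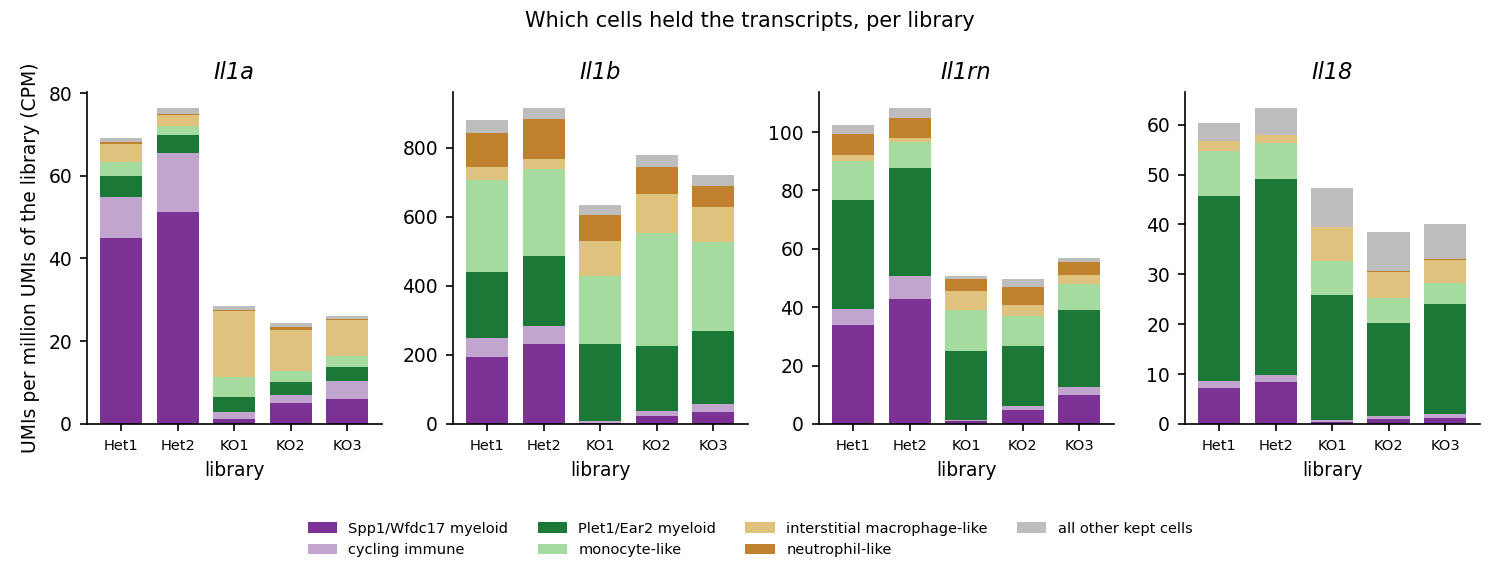
CPM that each class adds to the whole-library level of Il1a, Il1b, Il1rn and Il18 (stacked bars) in the 5 libraries. Outside the Spp1/Wfdc17 and cycling immune clusters, Il1a added 14.4 and 10.9 CPM in Het and 25.8, 17.4 and 15.6 CPM in KO.

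In an alternative chosen after seeing that they held most Het UMIs of Il1a, both classes (3 clusters) were left out of the whole library. The log2 fold change of Il1a was then 0.54 (adjusted p = 0.247) and that of Il1b 0.01 (adjusted p = 0.944), while Il1rn (-0.49, adjusted p = 0.0423) and Il1r2 (-0.49, adjusted p = 0.0440) still passed, and Il18 (-0.47, adjusted p = 0.0886) and Il33 (-0.79, adjusted p = 0.123) did not. Since the classes were chosen by their Il1a UMIs, the loss of the Il1a call is a description and no independent support.

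Plet1/Ear2 myeloid cells held 61.3 and 62.0% of Il18 UMIs in Het and 53.2, 48.7 and 54.7% in KO. Neutrophil-like cells held 74.1 and 74.98% of Il1r2 UMIs in Het and 61.6, 67.4 and 61.1% in KO, and their share of kept cells was 6.43 and 7.75% in Het and 4.79, 6.18 and 4.99% in KO. For both genes, the class that carried most of the transcripts contributed less of them in every KO library than in either Het library.

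The immune lineage, 9661 cells, repeated part of this. Il1a fell from 151 and 161 CPM in Het to 80.5, 57.2 and 60.0 CPM in KO (-1.32, adjusted p = 0.00163), and Il1rn from 223 and 228 CPM to 142, 113 and 131 CPM (-0.87, adjusted p = 0.00158). These were 2 of 9 members, beside 8.18% of 13914 genes. Without the Spp1/Wfdc17 and cycling immune clusters neither passed (Il1a 0.70, adjusted p = 0.209, and Il1rn -0.39, adjusted p = 0.142). Il18 (-0.57, adjusted p = 0.0747) passed once KO1 was left out (-0.80, adjusted p = 0.000164), and so did Il1rl1 (0.71, adjusted p = 0.0900, and 0.85, adjusted p = 0.0216, without KO1). No other left-out library gave either call. Over all 15 alternatives the adjusted p ran from 0.000164 to 0.304 for Il18 and from 0.0216 to 0.391 for Il1rl1.

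Il33 fell within alveolar epithelial classes. In AT2-like cells it fell from 88.7 and 79.6 CPM in Het (84.2 ± 6.41, SD, n = 2) to 26.2, 27.4 and 30.5 CPM in KO (28.04 ± 2.25, SD, n = 3), a log2 fold change of -1.71 (SE 0.16, adjusted p = 1.46e-06). The values rest on 307 and 167 UMIs in Het and 14, 28 and 56 UMIs in KO, and the groups were far apart. In the Ager/Sftpc epithelial cells, which carry both AT1 and AT2 genes, Il33 fell from 42.6 and 42.1 CPM in Het to 11.96, 8.60 and 12.6 CPM in KO (-2.01, SE 0.18, adjusted p = 0.000279). Over the epithelial lineage it fell from 28.2 and 24.4 CPM to 11.6, 9.84 and 12.6 CPM (-1.28, SE 0.15, adjusted p = 0.00524). Il33 was the only member that passed in each of these fits: 1 of 4 tested in AT2-like cells beside 7.69% of all genes, 1 of 4 in Ager/Sftpc cells beside 2.55%, and 1 of 8 in the epithelial lineage beside 10.5%.

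These 3 calls held under every alternative that could be run. At Leiden resolution 1, with the stricter cell filter and with doublets kept, no cluster was named Ager/Sftpc. Those settings therefore did not test the call in that class. The log2 fold change ran from -2.22 to -1.55 over 14 alternatives in AT2-like cells, from -2.44 to -1.85 over 11 in Ager/Sftpc cells and from -1.76 to -1.11 over 14 in the epithelial lineage, where the highest adjusted p was 0.0433. AT2-like cells were 4.66 and 3.17% of kept cells in Het and 1.41, 1.30 and 2.37% in KO. Their 8 AT2 markers summed to 140283 and 148610 CPM in Het and to 87397 to 106685 CPM in KO, and in Ager/Sftpc cells to 58115 to 72026 CPM in Het and 32518 to 48693 CPM in KO, also without overlap. The 8 AT1 markers in Ager/Sftpc cells summed to 6758 to 8072 CPM in Het and 5597 to 6168 CPM in KO, again without overlap. In AT2-like cells 6 general mesenchymal markers lay the other way, at 42.2 and 44.3 CPM in Het and 48.6, 146.9 and 117.8 CPM in KO. Markers of 2 Il33-bearing classes overlapped there between the groups: adventitial fibroblast markers summed to 44.5 to 63.9 CPM in Het and 26.4 to 69.1 CPM in KO, and mesothelial markers to 27.2 to 57.7 CPM in Het and 43.0 to 62.2 CPM in KO. None of these markers was at 0 in all libraries. The part of these marker levels in the Il33 result was not tested.

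Outside the epithelium Il33 did not pass. Mesothelial-like cells had non-overlapping values (given above) and a log2 fold change of -0.75 (edgeR adjusted p = 0.569), with 39 to 79 cells per library. The groups did not overlap for 24.0% of all genes tested in this class. The class was counted as mesenchymal, and 73.4% of its cells held at least 3 general markers of another lineage. On average the epithelial markers were detected in 43.7% of these cells and the immune markers in 12.1%. Whether such cells are mixtures was not tested. Adventitial fibroblast-like cells overlapped (-0.48, adjusted p = 0.537), as did general capillary-like cells at 6.21 and 4.19 CPM in Het and 5.86, 1.36 and 5.94 CPM in KO (-0.28, adjusted p = 0.903). A test of genotype by lineage, needed before the fall could be called particular to epithelium, did not pass for Il33 (adjusted p = 0.350). In the test of class pairs given after the myeloid results, the change in AT2-like cells minus that in adventitial fibroblast-like cells was -1.27 on the log2 scale (adjusted p = 0.00359). For Ager/Sftpc cells this difference was -1.52 (adjusted p = 0.00515). Without Het1 neither passed (-0.83, adjusted p = 0.204, and -1.15, adjusted p = 0.140), nor did the AT2 difference without KO3 (-1.19, adjusted p = 0.0513).

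**Figure D4:**
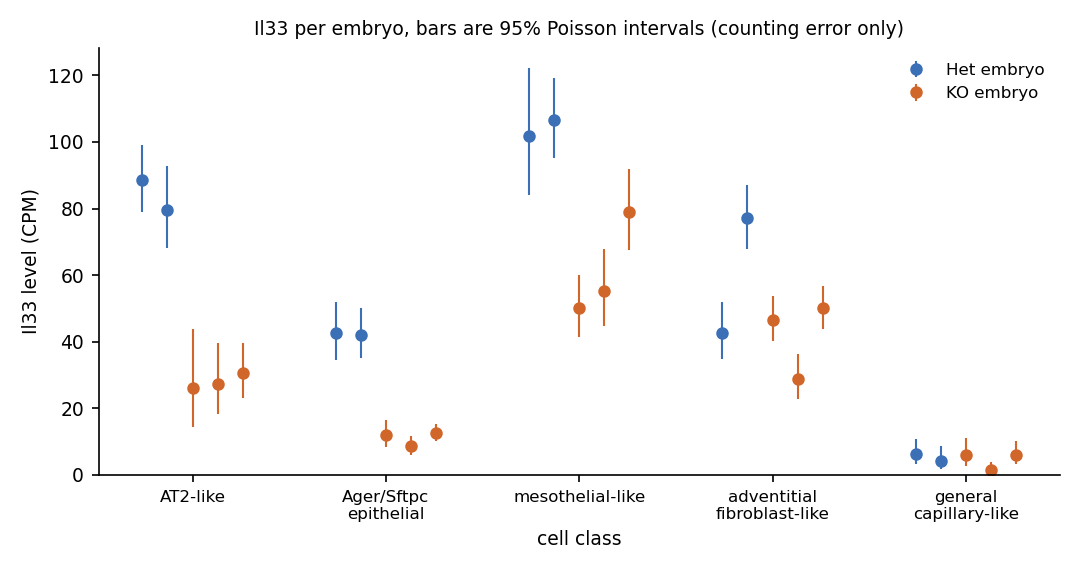
Il33 CPM per library in 5 classes, with 95% Poisson intervals that cover counting error only. In AT2-like and Ager/Sftpc epithelial cells the Het points lie above all KO points, at 79.6 to 88.7 against 26.2 to 30.5 CPM and 42.1 to 42.6 against 8.60 to 12.6 CPM.

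In Plet1/Ear2 myeloid cells, the class with the most cells, the decoy receptor Il1r2 rose while Il1rn and Il18 fell in KO, 3 of 9 members beside 7.45% of 12085 genes. Il1r2 stood at 6.01 and 8.46 CPM in Het and 14.6, 12.1 and 12.3 CPM in KO, from 88 and 127 UMIs in Het and 102, 125 and 177 UMIs in KO. The groups did not overlap (0.80, SE 0.17, adjusted p = 0.0174). The class held 0.0964 and 0.142 Il1r2 UMIs per cell in Het and 0.278, 0.216 and 0.233 in KO, beside 0.00161 to 0.00955 per red-cell barcode. The UMIs per cell and per barcode are not adjusted for depth. Among the non-haemoglobin UMIs of red-cell barcodes Il1r2 was at 19.2 and 19.5 CPM in Het and 3.00, 6.82 and 13.2 CPM in KO. In Het1, Het2 and KO3 this was above the level of the class. The part of free RNA in the Il1r2 result was not tested. Il1rn, at 161 and 154 CPM against 138, 102 and 118 CPM, had a log2 fold change of -0.44 (SE 0.10, adjusted p = 0.0286). Il18, at 160.2 and 163 CPM against 147, 93.7 and 99.2 CPM, had -0.56 (SE 0.15, adjusted p = 0.0493). Both fell without overlap. In this class the groups did not overlap for 5 of the 9 members and for 39.5% of all genes tested. Il1b, at 819 and 844 CPM in Het and 1287, 949 and 952 CPM in KO, did not pass (0.32, adjusted p = 0.161), nor did Il1rl1 (1.48, adjusted p = 0.0709) or Il1a (-0.28, adjusted p = 0.306).

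Each of these 3 calls was lost when some libraries were left out. Il1r2 missed the threshold without Het1 (0.58, adjusted p = 0.201) and without KO2 (0.83, adjusted p = 0.05001), Il1rn without Het1 (0.260), Het2 (0.130), KO2 (0.0907) or KO3 (0.0554), and Il18 without Het1 (0.258), Het2 (0.220), KO2 (0.162) or KO3 (0.103). Over 15 alternatives the adjusted p ran from 0.00199 to 0.201 for Il1r2, from 0.000377 to 0.260 for Il1rn and from 2.2e-05 to 0.369 for Il18, and none changed sign. In these cells 8 alveolar macrophage markers summed to 1395 to 1457 CPM in Het and 939 to 1028 CPM in KO, and 8 neutrophil markers to 537 to 590.2 CPM in Het and 340 to 535 CPM in KO, both without overlap. Epithelial markers lay the other way, 7 of them summing to 38.7 to 42.5 CPM in Het and 43.0 to 64.9 CPM in KO. The class joins 4 clusters, and the 2 cycling ones held 34.8 and 36.9% of its cells in Het and 48.5, 45.3 and 45.7% in KO. Without the cycling clusters, an alternative added after seeing the data, Il1r2 (1.17, adjusted p = 0.0132) and Il1rn (-0.39, adjusted p = 0.0423) passed, and Il18 did not (-0.45, adjusted p = 0.0586). The part of the markers and of the other 2 clusters in the results was not tested.

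**Figure D5:**
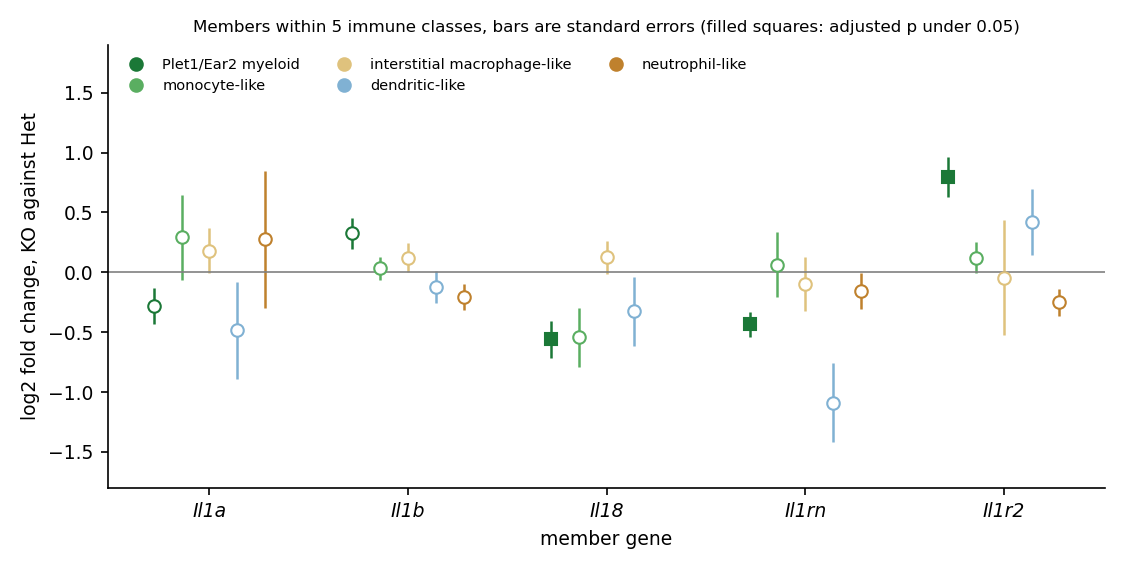
Log2 fold change (KO against Het, with SE) of Il1a, Il1b, Il18, Il1rn and Il1r2 in 5 myeloid classes, with filled squares where the adjusted p was under 0.05. Only the Plet1/Ear2 myeloid cells have filled squares, for Il18, Il1rn and Il1r2.

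Monocyte-like, interstitial macrophage-like, dendritic-like and neutrophil-like cells gave no member past the threshold. Interstitial macrophage-like cells had log2 fold changes of 0.18 for Il1a, 0.12 for Il1b and 0.13 for Il18. Il1r2 in neutrophil-like cells was at -0.25 (adjusted p = 0.527), and Il1rn in dendritic-like cells at -1.09 (adjusted p = 0.383). Monocyte-like cells joined 3 clusters whose shares differed between libraries. The cluster led by Plac8, Ms4a6c and Ms4a4c held 239 of 527 and 216 of 493 monocyte-like cells in Het and 62 of 200, 41 of 473 and 63 of 446 in KO. The one led by Ifitm6 and Plac8 held 95 and 97 cells in Het and 20, 264 and 211 in KO, and the one led by Ccr2 and Ctss 193 and 180 in Het and 118, 168 and 172 in KO. Over all 17 classes, 69 tests of a member in a class gave 5 calls, beside 1.81% over all genes in the same fits.

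Whether a member's change differed between classes was tested in every pair of the 17 classes for each member tested in both, an addition made after seeing the data. Of 298 tests over 105 pairs, 15 passed, beside 0.637% of genes called in the same fits. These tests share classes and libraries, so they are not independent of each other. On simulated counts for AT2-like against adventitial fibroblast-like cells, in which 200 genes changed by a log2 value of 1, 81 of the 200 were recovered and 11 of 92 calls were false, a larger share than the threshold of 0.05 names. All 15 differences kept their sign when any 1 library was left out, and each missed the threshold without at least 1 of them. For Il1r2 the change in Plet1/Ear2 myeloid cells lay above that in neutrophil-like cells by 1.12 on the log2 scale (adjusted p = 0.000282), and for Il18 the change in Plet1/Ear2 cells lay below that in interstitial macrophage-like cells (-0.69, adjusted p = 0.0122). The first missed the threshold without Het1 (0.88, adjusted p = 0.0930), and the second without Het1 (0.1501), Het2 (0.1499) or KO3 (0.0617). Il33 gave 4 of the 15, those with adventitial fibroblast-like cells given above and those of AT2-like cells (-1.69, adjusted p = 0.00823) and Ager/Sftpc cells (-1.97, adjusted p = 0.0123) against Plet1/Ear2 cells, where Il33 was at 0.874 to 1.58 CPM. The last 2 missed it without Het1 (0.172 and 0.185) or Het2 (0.0526 and 0.110).

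The other 9 were for Il1b, 8 of them with smooth muscle-like or secretory airway-like cells. In smooth muscle-like cells Il1b was at 13.2 and 39.3 CPM in Het and 3.07, 6.77 and 10.8 CPM in KO, from 28 and 53 UMIs in Het and 7, 11 and 22 UMIs in KO. Per cell this is 0.182 and 0.473 UMIs in Het and 0.0452, 0.0957 and 0.146 in KO, beside the 0.0311 to 0.0851 of a red-cell barcode. In secretory airway-like cells Il1b was at 22.2 and 19.5 CPM in Het and 1.47, 11.8 and 10.7 CPM in KO. Neither class passed by itself (-1.84, adjusted p = 0.203, and -1.49, adjusted p = 0.202). The change in smooth muscle-like cells lay under that in 5 immune classes by 1.57 to 2.17 on the log2 scale (adjusted p from 5.87e-06 to 0.0143). Without Het2, the library with the highest Il1b in smooth muscle-like cells, these 5 differences were 0.70 to 1.26 and none passed (adjusted p from 0.235 to 1). The difference from neutrophil-like cells also missed the threshold without KO1 (1.13, adjusted p = 0.0633). For secretory airway-like cells, the difference from Plet1/Ear2 cells missed it without Het1 (1.71, adjusted p = 0.117) or KO1 (1.08, adjusted p = 0.420). The part of free RNA in these differences was not tested.

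In the mesenchymal and endothelial lineages no member passed. In mesenchymal cells 8 members were tested beside 0.0508% of genes called, and 4 had an unadjusted p under 0.05, as did 12.5% of all genes. In endothelial cells 5 were tested beside 4.38% of genes called, and 1 had an unadjusted p under 0.05, as did 19.8% of all genes. By edgeR and by DESeq2 the count of members was 0 in both lineages. Il1r1 in smooth muscle-like cells stood at 50.7 and 49.7 CPM in Het and 30.2, 33.9 and 39.9 CPM in KO (-0.53, adjusted p = 0.313), and Il1rap in myofibroblast-like cells at 85.8 and 94.8 CPM in Het and 67.6, 42.1 and 62.5 CPM in KO (-0.63, adjusted p = 0.137). Both had groups that did not overlap, as did 26.2% of all genes tested in smooth muscle-like cells and 28.3% in myofibroblast-like cells. In AT2-like cells Il1r1 lay the other way, at 7.51 and 7.63 CPM in Het and 11.2, 15.7 and 11.5 CPM in KO, and did not pass (0.59, adjusted p = 0.331). The genotype by lineage test called 9.3% of 16572 genes and no member, with Il18 nearest at an adjusted p of 0.0904.

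A list of 61 other genes of the pathway, of which 57 have a row in the files, was read in the same fits. Over the whole library 55 were tested, 1 rose and 5 fell, beside 4.05% of all genes called, with a median log2 fold change of -0.16 beside 0.01 over all genes. Vcam1, an adhesion molecule induced by interleukin-1, rose from 16.5 and 14.3 CPM in Het to 38.3, 26.0 and 31.7 CPM in KO (1.02, adjusted p = 0.0401). Its log2 fold change within the endothelial lineage was 0.07 (edgeR adjusted p = 0.966). Lcn2, an iron-sequestering antimicrobial protein, fell from 144 and 159 CPM to 89.7, 83.5 and 84.8 CPM (-0.85, adjusted p = 0.0121). The chemokine gene Cxcl2 (-0.66), the mitochondrial superoxide dismutase gene Sod2 (-0.52), the interleukin-18 receptor chain gene Il18r1 (-0.44) and the RNase gene Zc3h12a (-0.34) fell as well. Of the signal transduction genes (16 or 17 tested per fit) and those of cytokine processing and the inflammasome (5 to 10 tested), none passed in the whole library or in any of the 4 lineages.

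In the epithelial lineage 43 pathway genes were tested, of which 3 rose and 3 fell, 6 of 43 beside 10.5% of all genes. Saa3, an acute-phase serum amyloid, fell from 75.3 and 70.8 CPM in Het to 2.42, 19.2 and 10.4 CPM in KO (-2.77, adjusted p = 0.0119). Lcn2 fell from 136 and 156 CPM to 35.2, 52.7 and 49.7 CPM (-1.73, adjusted p = 0.00206), and Sod2 fell by 0.40 on the log2 scale. Nfkbiz, a nuclear co-regulator of NF-kB targets, rose from 90.8 and 97.1 CPM to 185, 170.4 and 204 CPM (0.93, adjusted p = 0.00539), as did Vcam1 (1.26) and the adhesion molecule gene Icam1 (0.40). Vcam1 was low there, at 2.01 and 1.15 CPM in Het and 4.57, 3.63 and 3.96 CPM in KO. The part of free RNA and mixed cells in its rise was not tested.

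In the immune lineage 53 were tested, of which 3 rose and 4 fell, 7 of 53 beside 8.18% of all genes. The monocyte chemokine gene Ccl2 rose from 68.1 and 84.0 CPM in Het to 196, 136 and 176 CPM in KO (1.09, adjusted p = 0.00460), and Vcam1 (1.28) and Icam1 (0.60) rose too. The neutrophil chemokine genes Cxcl3 (-1.04) and Cxcl1 (-0.56) fell, as did Sod2 (-0.58) and Il6 (-0.44, named because it completes the count). No pathway gene passed in the endothelial lineage (36 tested) or the mesenchymal lineage (40 tested).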

How the data were processed

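Whole lungs of 5 embryos were measured by 10x single-cell RNA sequencing, 1 library each. The deposited files hold raw UMI counts per gene and cell barcode, which the authors made with Cell Ranger 4.0.0 on mm10, per the submitters' processing notes. The 9 members and the pathway list were chosen with earlier results of these data known. All 9 members are described. Pathway genes past the threshold are named, at most 6 a fit by size of change, and the 3 genes most alike are named for each member.

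Cells needed 500 detected genes and no more than 15% mitochondrial UMIs, doublets were scored against simulated pairs and removed at 0.8% per 1000 cells, and cells were clustered on 2000 variable genes (members left out), 30 principal components and Leiden resolution 2 (leidenalg 0.10.2, Python 3.11.15). Clusters were named from marker lists, so class names are rebuilt here. Kept cells had median depths of 9710 to 12694 UMIs. UMIs were summed per library and class and tested with edgeR 4.0.16 in R 4.3.3 (TMM, filterByExpr, quasi-likelihood, two-sided, Benjamini-Hochberg, threshold 0.05). The test was checked on simulated counts in which 200 genes changed by a log2 value of 1. Of these, 68.5% were recovered in the whole library, with 15 false calls. The immune lineage gave 79.7% with 18 false calls and the endothelial lineage 51.5% with 7. Recovery was lowest in mesothelial-like cells (32.8%, 17 false calls) and highest in Plet1/Ear2 myeloid cells (85.9%, 15 false calls). In each of these fits the false calls were a larger share of all calls than the threshold of 0.05 names. Each library is a separate embryo. Alternatives were library size scaling, no low-count filter, DESeq2 1.42.0, sex as a covariate, a replicate block, each library left out, doublets kept, a filter of 1000 genes and 10% mitochondrial UMIs, Leiden resolution 1, mixed cells left out and all barcodes. Added after seeing the data were fits without the Spp1/Wfdc17 and cycling immune classes, fits of the Plet1/Ear2 cells without cycling clusters, and genotype by class terms over all pairs of fitted classes, the last also without each library and with library size scaling. Intervals cover counting error only.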

Additional observations from a re-analysis of the deposited data

Results flagged for a closer look

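For 4 members the change between Het and KO passed the threshold of a genotype by class test in at least 1 pair of classes (edgeR, adjusted over all genes of each pair). The test was run on all 105 pairs of fitted classes with a member tested in both, an addition made after seeing the data. Of 298 tests 15 passed, beside 0.637% of genes called in the same fits. On simulated counts for AT2-like against adventitial fibroblast-like cells, 11 of 92 calls of this test were false. Each of the 15 missed the threshold without at least 1 library, and none changed sign. For Il1r2 the change in Plet1/Ear2 myeloid cells was above that in neutrophil-like cells by 1.12 on the log2 scale (adjusted p = 0.000282). All 3 KO libraries lay above both Het libraries in the Plet1/Ear2 cells and below both in neutrophil-like cells. The groups did not overlap for 39.5% of all genes tested in the first class and 29.5% in the second. The change in neutrophil-like cells did not pass by itself (-0.25, edgeR adjusted p = 0.527). For Il18 the change in Plet1/Ear2 cells minus that in interstitial macrophage-like cells was -0.69 (adjusted p = 0.0122). For Il33 the change in AT2-like cells minus that in adventitial fibroblast-like cells was -1.27 (adjusted p = 0.00359) and minus that in Plet1/Ear2 cells -1.69 (adjusted p = 0.00823). For Ager/Sftpc epithelial cells the same differences were -1.52 (adjusted p = 0.00515) and -1.97 (adjusted p = 0.0123). Without Het1 these 6 had adjusted p from 0.0930 to 0.204.

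For Il1b the change in smooth muscle-like cells lay below that in 6 classes. The differences were 2.17 for Plet1/Ear2 myeloid cells (adjusted p = 0.000706), 2.46 for ciliated airway-like cells (0.0227), 1.70 for dendritic-like cells (5.87e-06), 1.95 for interstitial macrophage-like cells (0.000129), 1.77 for monocyte-like cells (0.0143) and 1.57 for neutrophil-like cells (0.00322). The change in secretory airway-like cells lay below that in Plet1/Ear2 cells by 1.79 (adjusted p = 0.00207) and below that in monocyte-like cells by 1.46 (adjusted p = 0.0480), and the change in AT2-like cells minus that in ciliated airway-like cells was -1.39 (adjusted p = 0.0470). All 6 smooth muscle differences missed the threshold without Het2 (0.70 to 2.26, adjusted p from 0.210 to 1). Both secretory differences missed it without Het1 (1.71 and 1.44) or KO1 (1.08 and 0.92), that from monocyte-like cells also without Het2 (1.47), and the AT2 difference without any 1 library (-1.81 to -0.99). The ciliated difference from smooth muscle-like cells also missed it without Het1 (2.60) or KO3 (2.16), and the neutrophil one without KO1 (1.13). Secretory airway-like cells joined a cluster of shallow cells (233 and 139 in Het, 42, 46 and 12 in KO) and a deeper one (36 and 25 in Het, 24, 22 and 21 in KO). The part of this mix and of free RNA in the Il1b differences was not tested.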

How the results depend on the processing

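With the Spp1/Wfdc17 and cycling immune clusters left out (chosen after seeing the data), the log2 fold changes turned sign for Il1a (0.54 in the whole library, 0.70 in the immune lineage) and Il1b (0.012 and 0.11), and 2 members passed in the whole library and 1 in the immune lineage. The labels give a replicate number and do not say whether libraries of the same number were processed together. With the replicate block over the 4 libraries numbered 1 and 2, whole-library calls went from 4 members and 6 pathway genes to 0 each. Member calls over the classes went from 5 to 8. Deviations of same-numbered libraries (Het1 with KO1, then Het2 with KO2) correlated at -0.11 and -0.17 in the whole library. By lineage the values were 0.11 and 0.099 (immune), 0.16 and -0.029 (epithelial), -0.15 and -0.26 (endothelial), and -0.21 and -0.155 (mesenchymal). With 2 Het libraries, the deviations of Het1 and Het2 mirror each other, so the values of a pair are not independent.

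With sex as a covariate, the whole library had 0 members and 0 pathway genes, the immune lineage 3 pathway genes (7 in the main test) and the classes 2 member calls. The stricter cell filter left 2 members in the whole library and 2 class calls, and Leiden resolution 1 left 3 class calls. Neither setting had a class named Ager/Sftpc, so the Il33 call in those cells could not be among their class calls. Keeping doublets gave 2 epithelial members (1 in the main test). DESeq2 gave 11 pathway genes in the whole library and 2 in mesenchyme. Without a low-count filter there were 16 class calls, pathway genes of 12 in epithelium, 1 in endothelium and 5 in mesenchyme (6, 0 and 0 in the main test), and 1 genotype by lineage term. With mixed cells left out the pathway counts were 2, 1 and 1, and 2 members had a genotype by lineage term. Leaving out each library gave 0 to 3 whole-library members, 0 to 1 mesenchymal members, 2 to 4 immune members, 2 to 8 class calls, 0 to 1 genotype by lineage terms, and pathway genes of 0 to 9 in the whole library, 1 to 5 in epithelium, 0 to 1 in mesenchyme and 2 to 10 in the immune lineage.

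Of 285 values of 20 single results under alternatives, 224 kept their direction and side of the threshold, 50 lost and 7 gained the call, and 4 turned sign. Of 90 values of the 15 differences between classes, 59 passed the threshold and 31 did not, all with the same sign. The mean level of Il1a in Spp1/Wfdc17 cells became 832 CPM at Leiden resolution 1. Genes called in the whole library numbered 719, but 2041 with DESeq2, 8 with the replicate block, 0 with the sex covariate and 2 to 860.0 without 1 library. They ran from 188 to 2226 in AT2-like cells, from 40 to 817 in Ager/Sftpc cells and from 94 to 1543 in Plet1/Ear2 cells.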

Other observations

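Within single classes, the pathway list gave 546 tests and 18 calls, 3.3% beside 1.81% over all genes in the same fits. These genes were named after their values were seen. Lcn2 fell in AT2-like cells (-1.39), Ager/Sftpc epithelial cells (-1.93), ciliated airway-like cells (-1.84) and monocyte-like cells (-1.62), and Saa3 fell in Ager/Sftpc cells (-2.28), ciliated airway-like cells (-2.63) and secretory airway-like cells (-2.46), with edgeR adjusted p from 7.4e-05 to 0.0294. Nfkbiz rose in AT2-like (0.50), Ager/Sftpc (0.69) and ciliated airway-like cells (0.75), and Nfkbia, the NF-kB inhibitor, rose in AT2-like cells (0.61). In Plet1/Ear2 myeloid cells Ptgs2, the inducible cyclooxygenase (0.90), the interleukin-18 receptor chain gene Il18rap (0.84) and Ccl2 (0.69) rose, while Cxcl1 (-0.70) and Nlrp1b, an inflammasome sensor (-0.92), fell. In smooth muscle-like cells Cxcl2 (-1.53) and Ccl2 (-0.99) fell. Ccl2 thus rose in one class and fell in another, and the difference between those classes was not tested.

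Mesothelial-like cells had Il18 at 109 and 83.7 CPM in Het and 114, 189 and 181 CPM in KO and did not pass (0.77, edgeR adjusted p = 0.597), although no KO value was below a Het value. In this class 24.0% of all genes tested had groups that did not overlap.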
